A study of Caenorhabditis elegans with 4 samples.

Results

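The cytochrome P450 genes analysed were the 53 rows of the expression table whose name begins with cyp-, followed by a family number, a subfamily letter and a member number. They were chosen by name alone, out of 15408 rows, and fell into 15 families and 23 subfamilies. The largest families were cyp-33, with 10 members, and cyp-13, cyp-34 and cyp-35, with 7 members each. All 53 passed the filter of a mean of at least 0.5 FPKM, a count of fragments scaled to transcript length and library size. They made up 0.352% of the 15065 genes tested. The RefSeq annotation of WBcel235 lists 80 genes with such a name, 6 of them pseudogenes, and 52 of these had a row here, while the others were not analysed here. *cyp-31A1* (C01F6.3) is annotated as a pseudogene, and T09H2.1, named *cyp-34A4* in the table, is named *dach-1* in this annotation.

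The libraries were made from poly-A RNA of *C. elegans* of mixed stages, of wild-type strain N2, grown on OP50 bacteria at 20°C. The 2 cisplatin libraries came from animals exposed to 60 µg/ml of cisplatin, a platinum drug that crosslinks DNA, for 24 h, and the 2 control libraries came from untreated animals. The comparison asked which transcripts change on exposure to the drug. In a population of mixed stages, fewer cells of a type and less RNA per cell cannot be told apart.

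P450 enzymes are heme proteins that insert an oxygen atom into small lipophilic molecules, with electrons passed on by NADPH-cytochrome P450 reductase (EMB-8 in *C. elegans*) and in part by cytochrome b5. In worms, members of the CYP2-like families cyp-14 and cyp-33 to cyp-35, of which the cyp-35A genes are the best studied, are known to be induced in the intestine by foreign compounds. The CYP3-like families cyp-13, cyp-25 and cyp-43 and the CYP4-like families cyp-29, cyp-31, cyp-32, cyp-37 and cyp-42 include enzymes of lipid and fatty acid metabolism. Of these, CYP-29A3 and CYP-33E2 make eicosanoids from polyunsaturated fatty acids, and CYP-31A2 and CYP-31A3 act redundantly, with EMB-8, to make lipids of the permeability barrier of the eggshell.

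Most P450 genes were expressed at low levels. The mean FPKM over the 4 libraries ranged from 0.503 (*cyp-13A6*) to 61.9 (*cyp-31A5*), with a median of 4.74, while the median of all genes tested was 10.9. Below 1 FPKM lay 8 members, between 1 and 10 lay 34, and above 10 lay 11. The cyp-31 family held the 3 highest levels, with *cyp-31A5* at 61.9, *cyp-31A2* at 55.7 and *cyp-31A3* at 39.8 FPKM. They were followed by *cyp-35A2*, a gene of the intestine implicated in fat storage, at 29.7, and by *cyp-44A1*, the mitochondrial-type P450, at 21.4 FPKM. *cyp-37A1* and *cyp-37B1* stood at 17.4 and 17.2, *cyp-43A1* at 13.1, *cyp-35C1* at 12.4, *cyp-34A9* at 11.8 and the pseudogene *cyp-31A1* at 10.02 FPKM. *cyp-23A1* (0.965 FPKM) and *cyp-13A12* (0.589 FPKM) were among the 8 lowest.

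**Figure D1:**
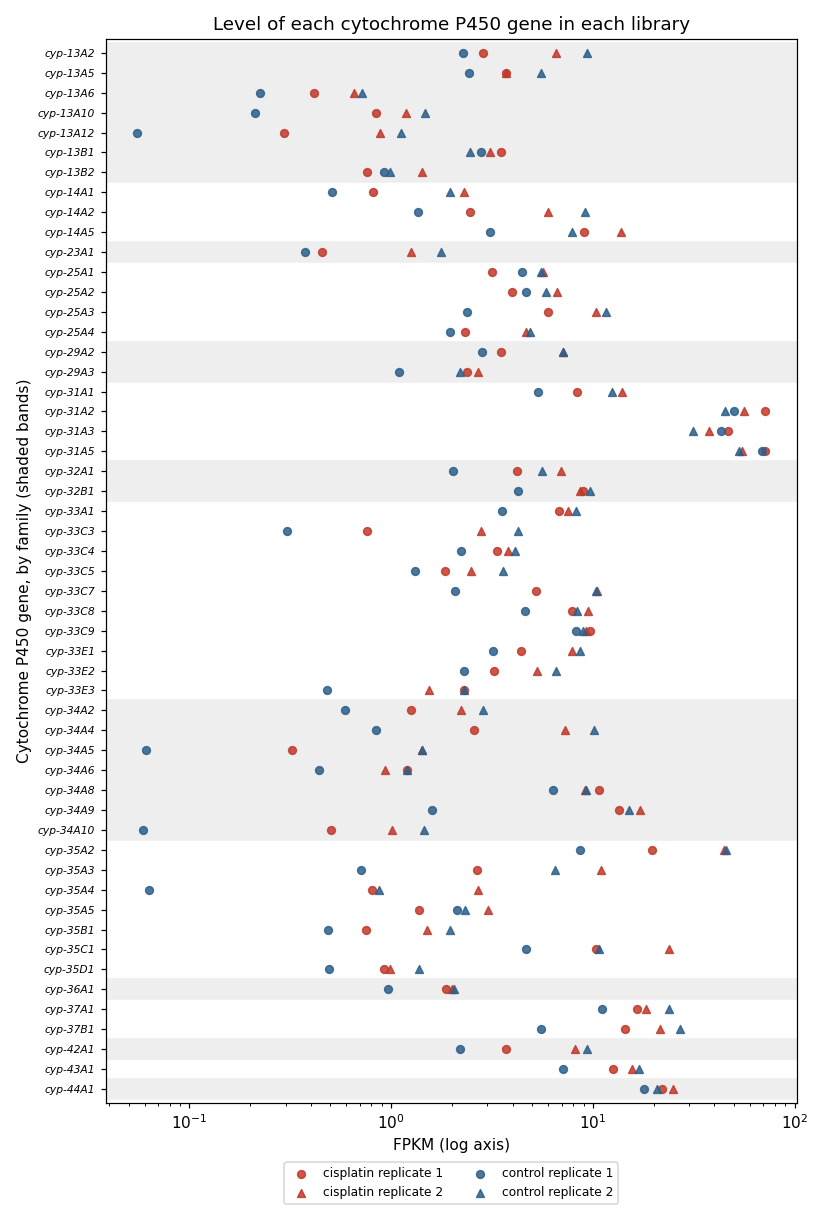
FPKM of each of the 53 P450 genes (rows, in shaded bands by family) in each library, on a logarithmic axis, with cisplatin in red, control in blue, circles for replicate 1 and triangles for replicate 2. The blue circle of control replicate 1 is the lowest of the 4 in 45 genes, and the highest means over the 4 libraries are those of *cyp-31A2*, *cyp-31A3* and *cyp-31A5*.

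Summed over the 53 genes, P450 transcripts came to 441 and 534 FPKM in cisplatin replicates 1 and 2 and to 305 and 514 FPKM in control replicates 1 and 2. Without the cyp-31 family the sums were 243 and 372 against 138 and 372 FPKM. Both replicate 2 libraries therefore held the same amount outside the cyp-31 family, and control replicate 1 held the least. The median FPKM of all genes was also lowest in control replicate 1, at 9.67 and 12.8 with cisplatin and 6.97 and 13.3 without.

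In the comparison of cisplatin with control, without use of the replicate numbers, no P450 gene passed the test. At an adjusted p of 0.05 (limma, with Benjamini-Hochberg adjustment over 15065 genes) 0 members were higher and 0 lower, and among all genes tested 0% passed in either direction. At an unadjusted p of 0.05, where 1.12% of all genes were higher and 0.445% lower, the members again counted 0 and 0. The smallest unadjusted p of a member, from limma, was 0.108 (*cyp-31A2*), and its adjusted p was 1.00. The labels give no more than a replicate number, while the paper describes 2 biological replicates. These p-values measure the spread between these libraries. With the replicate number as a block, 2 members were higher at an adjusted p of 0.05 in limma, *cyp-34A9* (0.0326) and *cyp-35C1* (0.0459). Over all genes 1.53% were higher in that fit, which has 1 residual degree of freedom per gene. The block rests on pairs of libraries that the labels do not give.

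The log2 fold change, cisplatin over control on the log2(FPKM + 0.5) scale, had a median of 0.27 over the 53 members and of 0.13 over all genes tested. It was above 0 in 47 members and below 0 in 6. Against the median of all genes, 37 members lay above and 16 below. The range ran from -0.20 (*cyp-25A1*) to 1.45 (*cyp-34A9*), and 48 of the 53 members lay within 0.6 of zero. The standard error of a member was between 0.221 and 1.12, with a median of 0.723, larger than most of the changes. The members' median was -0.26 without control replicate 1 and 0.83 without control replicate 2, so its sign rested on 1 library.

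**Figure D2:**
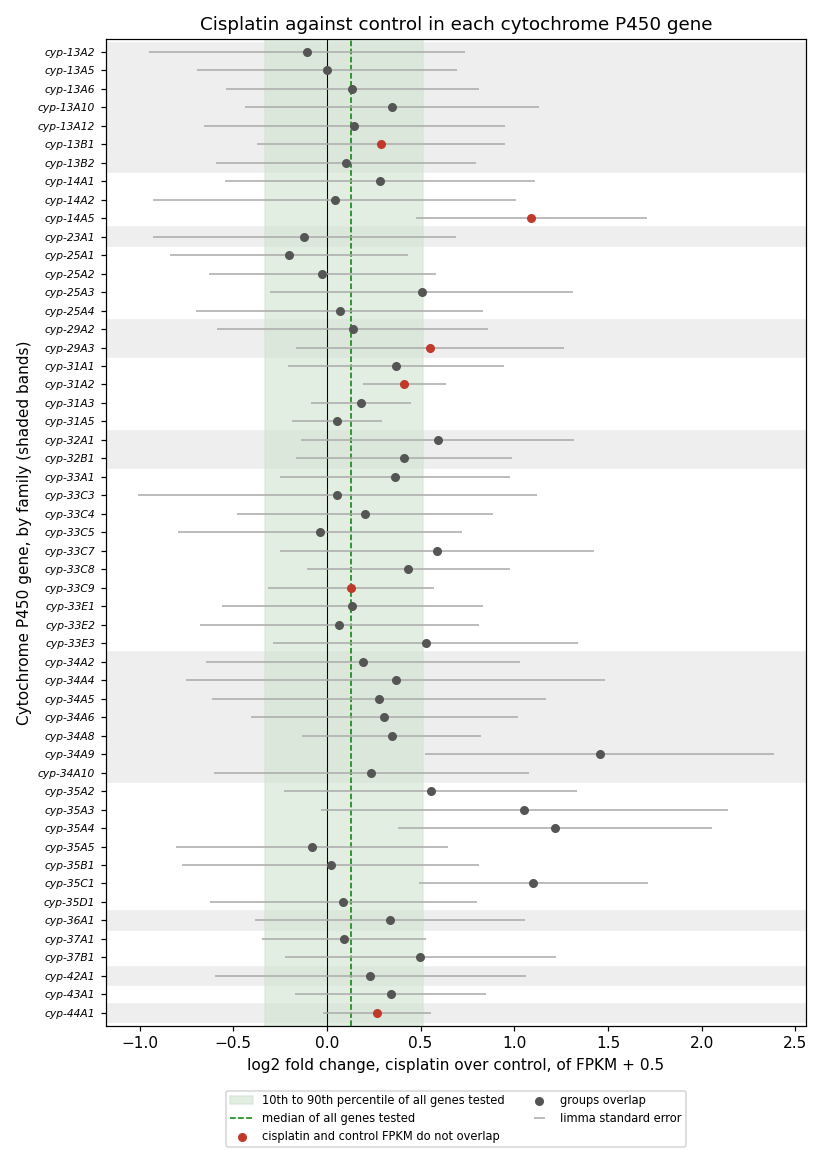
Log2 fold change of each P450 gene (rows, in shaded bands by family), cisplatin over control on the log2(FPKM + 0.5) scale, with limma's standard error as a line. Red points are the 6 genes whose cisplatin and control FPKM did not overlap, the dashed line is the median of all genes tested (0.13), and the green band spans their 10th to 90th percentile (-0.33 to 0.51).

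In 6 members (11.3%) both cisplatin values lay above both control values, while this held for 15.1% of all genes tested. The reverse order held in 0 members and in 4.21% of all genes. As deposited, the share of members higher without overlap was thus near that of all genes. How these shares compared changed with the scaling. With quantile normalization, where 12.8% of all genes lay higher without overlap and 12.5% lower, the members counted 7 and 1. With the libraries brought to a common median, where these shares were 7.79% and 9.24%, they counted 8 and 0. *cyp-14A5* was the single member that was higher without overlap under all 3 scalings.

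*cyp-14A5* (F08F3.7), of the CYP2-like cyp-14 family, lies on chromosome V (WBcel235, 5421018 to 5423282). Its level was 9.08 and 13.7 FPKM with cisplatin and 3.09 and 7.86 FPKM in the controls. The lower cisplatin library was only a little above the higher control, and control replicate 1 stood lowest. The log2 fold change was 1.09 (standard error 0.615), a ratio of 2.13 on the scale with 0.5 FPKM added, and it was 0.48 without control replicate 1 and 1.70 without control replicate 2. The remaining members of its family, *cyp-14A1* and *cyp-14A2*, lie next to each other on chromosome X and had log2 fold changes of 0.28 and 0.04. Scaled by quantiles or to a common median, the value of *cyp-14A2* was -0.12 and -0.11.

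Of the cyp-31 genes, *cyp-31A2* alone had groups without overlap. *cyp-31A2* (H02I12.8; chromosome IV, 11403961 to 11406052) had 71.7 and 56.0 FPKM with cisplatin, against 49.8 and 45.2 FPKM in the controls. Here the replicate 1 library was the higher of each group, in contrast to *cyp-14A5*. The log2 fold change was 0.41 (standard error 0.221), between 0.24 and 0.59 when a library was left out, and 0.20 with the libraries brought to a common median, where the groups overlapped.

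*cyp-31A3* had 46.9 and 37.5 FPKM with cisplatin, against 43.4 and 31.3 FPKM in the controls. *cyp-31A5* had 71.4 and 54.7 against 68.7 and 52.8 FPKM. The groups overlapped in both genes, and their log2 fold changes, 0.18 and 0.05, became -0.03 and -0.16 with the libraries brought to a common median. The pseudogene *cyp-31A1*, which shares the subfamily with these genes, had another order, with 8.33 and 13.9 FPKM in cisplatin replicates 1 and 2 and 5.37 and 12.5 FPKM in control replicates 1 and 2. Reads that map to several sites were removed by the authors before counting, so the level of near-identical members of a subfamily may be too low.

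The other 4 genes without overlap had small differences. *cyp-44A1* (ZK177.5; chromosome II, 5504044 to 5505975) had the highest level of them, with 22.1 and 24.9 FPKM with cisplatin, against 17.9 and 20.9 FPKM in the controls. Its log2 fold change was 0.27 (standard error 0.288) and between 0.16 and 0.38 when a library was left out. *cyp-29A3* (Y38C9B.1), of eicosanoid synthesis, had 2.38 and 2.70 FPKM against 1.09 and 2.20 FPKM, and its log2 fold change of 0.55 (standard error 0.715) was 0.17 without control replicate 1 and 0.93 without control replicate 2. *cyp-13B1* (F02C12.5) had 3.51 and 3.11 FPKM against 2.80 and 2.45 FPKM. *cyp-33C9* (C50H11.15) had 9.64 and 9.23 FPKM against 8.21 and 8.96 FPKM, and its log2 fold change of 0.13 was -0.02 with quantile normalization and -0.07 with a common median. The gap between the nearest libraries of the groups was small in each of these genes. With quantile normalization the groups overlapped in all 4, and with a common median they overlapped in all but *cyp-29A3*.

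Log2 fold changes above 1 were seen in 5 members. Apart from *cyp-14A5* these were 4 genes of the families cyp-34 and cyp-35 on chromosome V whose groups overlapped as deposited. With quantile normalization and with a common median, *cyp-34A9*, *cyp-35A4* and *cyp-35C1* were higher without overlap, as were *cyp-32A1* and *cyp-33C8*. Over all genes tested, 12.8% and 7.79% lay higher without overlap under these scalings. *cyp-35C1* and *cyp-35A3* are described although the rule for named genes did not select them, a choice made after their values were seen. *cyp-34A9* (B0213.15; 3968134 to 3970540), also known as *dod-16* for its regulation downstream of the FOXO factor DAF-16, had 13.4 and 17.2 FPKM with cisplatin, against 1.60 and 15.1 FPKM in the controls. A single control library set this gene apart, since the other control lay between the cisplatin values. Its log2 fold change of 1.45 (standard error 0.932) was 0.01 without control replicate 1 and 2.90 without control replicate 2.

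*cyp-35C1* (C06B3.3; 13896663 to 13898487) had 10.4 and 24.0 FPKM with cisplatin, against 4.65 and 10.7 FPKM in the controls. Cisplatin replicate 1 and control replicate 2 were almost level, while the other libraries stood apart on either side. The log2 fold change was 1.10 (standard error 0.610), and it was 1.69 and 0.52 when cisplatin replicates 1 and 2 were left out in turn and 0.54 and 1.66 when control replicates 1 and 2 were. Within replicate numbers 1 and 2, cisplatin minus control was 1.08 and 1.13 on the log2(FPKM + 0.5) scale. For *cyp-34A9* these differences were 2.73 and 0.18, and the medians of all genes tested were 0.25 and -0.003. The labels do not show that libraries of the same number are paired.

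*cyp-35A4* (C49G7.8; 4031619 to 4033446) was a weakly expressed gene, at 0.806 and 2.70 FPKM with cisplatin, against 0.0630 and 0.875 FPKM in the controls. Its lowest value corresponds to about 1.04 fragments, so it rests on very few reads. The log2 fold change was 1.21 (standard error 0.838), 2.00 with 0.1 FPKM added in place of 0.5, 0.87 with 1 added, and 0.57 when cisplatin replicate 2 or control replicate 1 was left out. Leaving out cisplatin replicate 1 or control replicate 2 gave 1.86. *cyp-35A3* (K09D9.2; 4022609 to 4024482), the neighbour of *cyp-35A4*, had 2.65 and 11.0 FPKM with cisplatin, against 0.711 and 6.46 FPKM in the controls. In both genes the replicate 2 library of a group was several times its replicate 1 library. Within replicate numbers 1 and 2, cisplatin minus control was 1.21 and 1.22 for *cyp-35A4* and 1.38 and 0.73 for *cyp-35A3*. The log2 fold change of *cyp-35A3* was 1.05 (standard error 1.09). It was 1.99 and 0.12 when cisplatin replicates 1 and 2 were left out in turn, and -0.21 and 2.32 when control replicates 1 and 2 were.

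The remaining cyp-35 genes had smaller fold changes than these. *cyp-35A2* (C03G6.15), the highest of the family, had 19.6 and 44.8 FPKM with cisplatin, against 8.61 and 45.9 FPKM in the controls. The replicate 2 libraries were alike, and the fold change of 0.55 (standard error 0.784) was 1.14 and -0.03 when cisplatin replicates 1 and 2 were left out in turn and -0.62 and 1.73 when control replicates 1 and 2 were. *cyp-35A5* had a log2 fold change of -0.08. *cyp-35B1* (*dod-13*), another gene known for its regulation by DAF-16, had 0.751 and 1.51 against 0.488 and 1.97 FPKM and a log2 fold change of 0.02, which was below 0 with 1 FPKM added and with both other scalings. *cyp-35D1* had 0.09. The median of the 7 cyp-35 members was 0.55, and that of the 7 cyp-34 members was 0.31.

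The 6 other cyp-34 genes lay between 0.19 (*cyp-34A2*) and 0.37 (*cyp-34A4*). In each of the 7 cyp-34 genes control replicate 1 was the lowest library, and their summed level there was 9.92 FPKM, against 41.5 FPKM in control replicate 2 and 30.0 and 39.1 FPKM with cisplatin. *cyp-34A4* had the widest gap within a group of all members, with 0.842 FPKM in control replicate 1 and 10.2 FPKM in control replicate 2, a difference of 2.99 on the log2 scale. Its cisplatin libraries had 2.57 and 7.26 FPKM. *cyp-34A5* and *cyp-34A10* had 0.0608 and 0.0591 FPKM in control replicate 1, about 1.03 and 0.99 fragments.

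In the cyp-33 family, of 10 genes, the median log2 fold change was 0.17, with a range from -0.04 (*cyp-33C5*) to 0.59 (*cyp-33C7*). Control replicate 1 was the lowest library in all 10. *cyp-33C7* had 5.22 and 10.49 FPKM with cisplatin, against 2.07 and 10.3 FPKM in the controls, so again the replicate 2 libraries were alike. *cyp-33E2* (F42A9.5), of eicosanoid synthesis in the pharynx, had 3.25 and 5.27 against 2.29 and 6.59 FPKM. The value of *cyp-33E2*, 0.07 (standard error 0.744), was -0.09 with quantile normalization and -0.11 with a common median. Its neighbour *cyp-33E3* is annotated with 4 exons and a spliced length of 890 bases, against 11 exons and 1687 bases for *cyp-33E2*, and had a fold change of 0.53.

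The CYP3-like families had the smallest medians among the families with several members, 0.13 for the 7 cyp-13 genes and 0.02 for the 4 cyp-25 genes. *cyp-13A12* (F14F7.3), which acts downstream of the prolyl hydroxylase EGL-9 and the hypoxia factor HIF-1 in the behavioural response to reoxygenation, had 0.294 and 0.885 FPKM with cisplatin, against 0.0552 and 1.12 FPKM in the controls. The value in control replicate 1 corresponds to about 1.03 fragments. Its log2 fold change was 0.15 (standard error 0.803). *cyp-13A10* stood at the upper end of the family with 0.35 and *cyp-13A2* at the lower end with -0.11. In the cyp-25 family *cyp-25A3* had 0.51 and *cyp-25A1* -0.20, the lowest of all members. *cyp-25A1* had 3.16 and 5.66 FPKM with cisplatin, against 4.44 and 5.54 FPKM in the controls, and the control values lay between those of the cisplatin libraries. *cyp-43A1*, the single member of its family, had a fold change of 0.34.

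Among the CYP4-like genes the cyp-32 pair had 0.59 (*cyp-32A1*) and 0.41 (*cyp-32B1*), and the cyp-37 pair had 0.09 (*cyp-37A1*) and 0.50 (*cyp-37B1*). *cyp-37B1* (F28G4.1) had 14.5 and 21.6 FPKM with cisplatin, against 5.51 and 27.1 FPKM in the controls, with the controls at both ends of the range. *cyp-29A2* had 0.14 and *cyp-42A1* 0.23. Outside these families, *cyp-36A1* (C34B7.3), which acts with the nuclear receptor gene *nhr-46* downstream of HIF-1, had 1.88 and 2.00 FPKM with cisplatin, against 0.961 and 2.05 FPKM in the controls. Its 3 upper libraries were nearly level and control replicate 1 stood below them. The fold change was 0.34 (standard error 0.719). *cyp-23A1*, the single member of the cyp-23 family, had -0.12.

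The spread within groups was larger than the difference between them. In the controls the members' median difference between replicate 2 and replicate 1 was 1.19 on the log2(FPKM + 0.5) scale, against 0.64 for all genes tested, and with cisplatin it was 0.61 against 0.28. The difference exceeded 1 in 35 members in the controls and in 11 with cisplatin. In 48 of the 53 members the size of the fold change was below that of the difference between the controls. The shares of all genes that match these counts of 35, 11 and 48 members were not computed. Over all genes tested the median fold change, 0.13, was also below the median difference between the controls. Control replicate 1 was the lowest of the 4 libraries in 45 members, while this held for 59.5% of all genes tested. Both replicate 2 libraries lay above both replicate 1 libraries in 41 members and in 57.3% of all genes. The reverse held in 2 members, *cyp-31A3* and *cyp-31A5*, and in 14.1% of all genes.

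**Figure D3:**
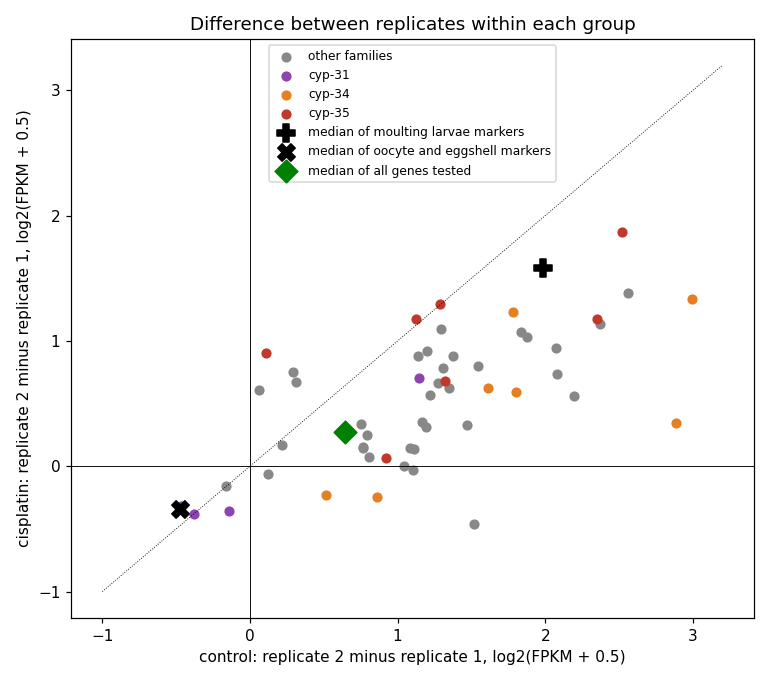
Difference between replicate 2 and replicate 1 of each P450 gene on the log2(FPKM + 0.5) scale, in the controls (horizontal) and with cisplatin (vertical), with the families cyp-31, cyp-34 and cyp-35 coloured and a dotted line at equality. Most members lie to the right of zero and below the line. So do the medians of the moulting markers (1.98 and 1.58) and of all genes tested (0.64 and 0.28). In both groups 3 cyp-31 genes lie below zero, as does the median of the oocyte markers (-0.47 and -0.34).

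Markers of developmental stages differed between the same libraries. The 10 markers of moulting larvae, among them *mlt-10*, *noah-1* and *bli-1*, were all higher in both replicate 2 libraries than in both replicate 1 libraries, and their summed level was 110 and 343 FPKM in cisplatin replicates 1 and 2 and 97.0 and 397 FPKM in control replicates 1 and 2. The 6 tested markers of oocytes and eggshell, among them *rme-2*, *oma-1* and *perm-2*, had the reverse order in all 6, with sums of 2445 and 1840 FPKM with cisplatin, against 2410 and 1653 FPKM in the controls. The eggshell genes *cyp-31A2* and *cyp-31A3*, and *cyp-31A5* of the same family, were lower in replicate 2 than in replicate 1 in both groups. This was also the order of the oocyte markers, and *cyp-13B1* was the only other member of which it was true. Of the 49 members outside the cyp-31 family, 40 were higher in both replicate 2 libraries, as were the moulting markers. So were 3 of the 5 tested embryo markers, 5 of the 6 hypodermis markers and 15 of the 21 ABC transporters. The median difference between replicates in the controls and with cisplatin was 1.22 and 0.62 for these 49 members. It was 1.98 and 1.58 for moulting, 1.13 and 0.70 for embryo and 1.69 and 1.52 for hypodermis markers, and 1.18 and 0.59 for ABC transporters. The 6 tested intestinal markers summed to 717 and 760 FPKM with cisplatin, against 688 and 741 FPKM in the controls, sums carried by *mtl-2*, *vha-6* and *ifb-2*. In the same list *elt-2*, the GATA factor of the intestine, had 5.75 and 10.7 FPKM with cisplatin, against 4.03 and 9.75 FPKM in the controls, differences between replicates of 0.84 and 1.18 on the log2 scale, and *pho-1* differed by 0.46 and 0.55. Markers of sperm summed to 424 and 503 FPKM with cisplatin, against 1118 and 954 FPKM in the controls, sums carried by the msp genes. At an unadjusted p of 0.05 in limma 4 of the 8 were lower, *msp-3*, *msp-19*, *msp-31* and *msp-57*. The other markers of sperm were not called, with log2 fold changes of -0.77 (*spe-38*), -0.40 (*spe-11*), -0.19 (*spe-9*) and -0.11 (*spe-41*). The listed markers *act-5* and *opt-2* of the intestine and *cbd-1* and *egg-1* of oocytes and eggshell were not among the genes tested. Nor were *end-1*, *end-3* and *tbx-37* of the embryo. The part of these stage differences in the P450 levels was not tested.

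The P450 genes were unevenly spread over the genome, with 28 on chromosome V, 7 each on II and IV, 5 each on III and X and 1 on I. With starts within 10 kb taken as neighbours, 23 members lay in 8 clusters. The largest, on chromosome V from 3950023 to 3972991, holds 6 cyp-34 genes (*cyp-34A4*, *cyp-34A5*, *cyp-34A6*, *cyp-34A8*, *cyp-34A9* and *cyp-34A10*) in 22.97 kb. Their fold changes ranged from 0.24 to 1.45, with *cyp-34A9* at the upper end and the others no higher than 0.37 (*cyp-34A4*). The standard errors lay between 0.477 (*cyp-34A8*) and 1.12 (*cyp-34A4*), so this range does not show that neighbours differ in fold change. Their difference between controls ran from 0.52 to 2.99. The levels differed, with a mean of 11.8 FPKM for *cyp-34A9* and 0.757 FPKM for *cyp-34A10*, which starts next to it. The 4 genes of the cyp-33C cluster, on chromosome V from 2236140 to 2252591, ranged from -0.04 to 0.59, and *cyp-25A1*, *cyp-25A2* and *cyp-25A3*, on chromosome III from 3832591 to 3839477, from -0.20 to 0.51. *cyp-35A3* and *cyp-35A4* were the only pair of neighbours whose members both had a fold change above 1. The sources used here do not say if strand was used to assign reads to genes.

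**Figure D4:**
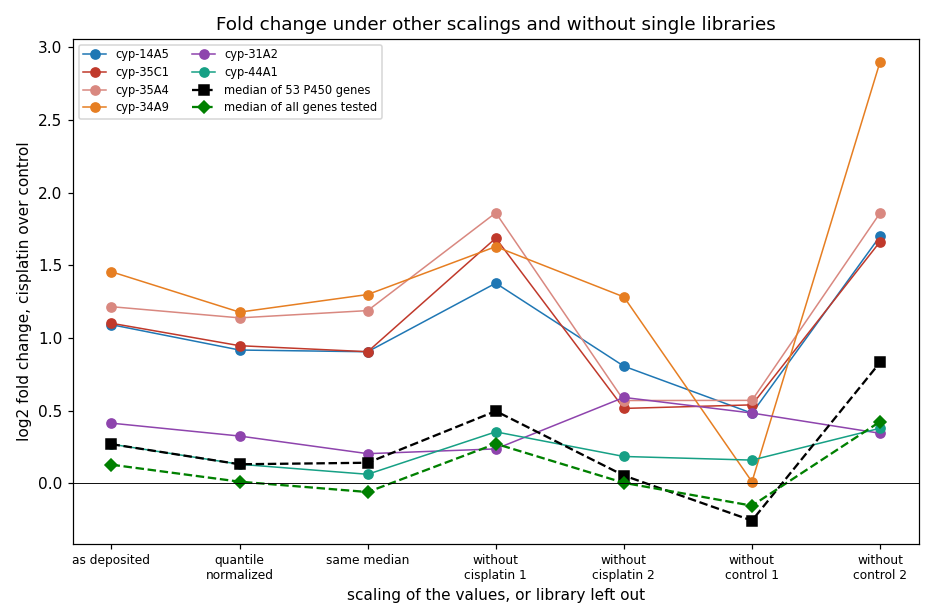
Log2 fold change of 6 P450 genes, of the median of the 53 P450 genes and of the median of all genes tested, as deposited, under 2 other scalings and with each library left out (horizontal axis). *cyp-34A9* moves from 0.01 to 2.90 and the members' median from -0.26 to 0.83 between the fits without control replicate 1 and without control replicate 2, while *cyp-44A1* stays between 0.06 and 0.38.

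Genes that work with the P450 enzymes gave no call at an adjusted p of 0.05 either. In that comparison, without the replicate numbers, 0% of all genes tested passed, so no list could hold a call. The 3 redox partners had a median log2 fold change of 0.19. *emb-8*, the P450 reductase, had 109.9 and 94.7 FPKM with cisplatin, against 84.9 and 94.03 FPKM in the controls, above every P450 gene. The cytochrome b5 genes *cytb-5.1* and *cytb-5.2* had fold changes of 0.03 and 0.28. Each of the 3 thus had a higher mean FPKM than any single one of the 53 P450 genes. Summed, the 53 P450 genes came to between 305 and 534 FPKM per library, above the level of *emb-8*. At an unadjusted p of 0.05 in limma 0 of the 3 were called.

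*daf-9*, which encodes the P450 of dafachronic acid synthesis and carries no cyp- name in the table, had 1.70 and 2.04 FPKM with cisplatin, against 0.918 and 1.91 FPKM in the controls. The 5 tested genes of dafachronic acid synthesis and its receptor had a median of 0.27, and *daf-12*, the receptor, had 0.22. The epoxide hydrolases *ceeh-1* and *ceeh-2*, which turn over P450-made epoxides, had 0.57 and 0.14. Of the 15 regulators examined, which include *nhr-8*, *ahr-1*, *skn-1*, *mdt-15* and *hif-1*, 0 were called at an unadjusted p of 0.05 in limma, and their median was 0.23. *nhr-8*, a nuclear receptor of the xenobiotic response, had 11.03 and 11.4 FPKM with cisplatin, against 5.42 and 10.3 FPKM in the controls.

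Of the 21 ABC transporters, efflux pumps of the multidrug resistance type, 0 were called at this threshold, with a median of 0.36. The largest change was that of *pgp-5*, with 4.87 and 2.79 FPKM with cisplatin, against 1.30 and 0.736 FPKM in the controls, or 1.49 (standard error 0.725) as a log2 fold change. Of the 6 lists of related genes, heme transport was the one with a negative median, -0.34 over 7 tested genes. *hrg-1*, a heme transporter of the endolysosome, had 69.7 and 77.4 FPKM with cisplatin, against 103.9 and 119.0 FPKM in the controls. It was the 1 gene of the 7 lower at an unadjusted p of 0.05, with a log2 fold change of -0.60 (standard error 0.189; unadjusted p = 0.0187, adjusted p = 1.00, limma). *hrg-4*, an intestinal heme importer, had -0.63 and *hrg-6* had -0.56, and the groups overlapped in both. The count of such genes over these lists changed with the scaling, the trend and single libraries.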

How the data were processed

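FPKM of each gene in 4 poly-A libraries (2 cisplatin, 2 control) were taken as deposited. The authors aligned paired-end reads to WBcel235 with TopHat, removed reads with several mapping sites and made the FPKM with Cufflinks and Cuffdiff, the tools the submitters' processing notes also name. Versions are not given in the sources used here. The authors' own comparison columns (condition means, fold changes, p-values and q-values) were not used. The dose is that of the treatment field of the labels, from which their general protocol text differs.

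The groups were compared on log2(FPKM + 0.5) by limma (version 3.58.1, R version 4.3.3), using an intensity trend, two-sided tests and Benjamini-Hochberg adjustment over the 15065 genes whose mean reached 0.5 FPKM. Another 88 genes with a failed estimate in some library, listed at 0, were left out. Fold changes on this scale understate those of low genes. The depth of each library is unknown from the table. Fragment numbers were estimated for the replicate 1 libraries from the spacing of low values, 0.0906 FPKM per fragment for a gene of 1 kb in cisplatin replicate 1 and 0.0848 in control replicate 1, and the spacing was less clear in the replicate 2 libraries.

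Names and coordinates were matched to RefSeq (all 53 members, each on the chromosome of the table). Named were, by rule, members at an unadjusted p of 0.05, up to 8 per direction whose groups do not overlap, in each family the highest member and those at either end of fold change, and members with a known role. Others named were chosen after their values were seen. The members and lists were chosen with earlier results of these data known. Alternatives were pseudocounts of 0.1 and 1, no filter or a mean of at least 2 FPKM, 2 other scalings, failed estimates kept at 0, no intensity trend, a replicate block and leaving out each library. Protein and promoter sequences were not analysed here.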

Additional observations from a re-analysis of the deposited data

How the results depend on the processing

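Under every alternative but the replicate block, 0 members were called by limma at an adjusted p of 0.05, higher or lower. At an unadjusted p of 0.05, members higher counted 2 with quantile normalization (*cyp-14A5* and *cyp-35A4*), 1 with the libraries brought to a common median (*cyp-14A5*), and 0 to 4 when a library was left out, the 4 being without control replicate 2. Over all genes these shares were 1.35%, 0.770% and 4.98%. Members without overlap counted 7 higher and 1 lower (*cyp-23A1*) with quantile normalization and 8 and 0 with a common median, and between 8 and 47 higher and between 0 and 29 lower when a library was left out, the extremes being without control replicate 2, where 64.8% of all genes lay higher, and without control replicate 1, where 43.4% lay lower. Over all genes, 2274 lay higher and 634 lower without overlap, 1927 and 1881 with quantile normalization and 1174 and 1392 with a common median, and the median of all genes was 0.01 and -0.06 under these scalings. The members' median fold change ran from -0.26 to 0.83 when a library was left out, and the median of all genes from -0.15 to 0.42. Related genes at an unadjusted p of 0.05 counted 0 higher and 2 lower with quantile normalization, 1 and 0 with a common median, 1 and 0 without the intensity trend, and 0 to 1 in each direction when a library was left out. A mean of at least 2 FPKM left 12186 genes and 38 members.

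The groups share replicate numbers, and the deviations of same-numbered libraries correlated at 0.594 over all genes. With 2 numbers this does not show that they pair the libraries. The paper compares 2 independent replicates without stating which libraries form a pair. With the replicate number as a block, on 1 residual degree of freedom per gene, 2 members passed an adjusted p of 0.05 in limma, *cyp-34A9* (0.0326) and *cyp-35C1* (0.0459), 0 were lower, and 231 genes were higher and 138 lower over all. At an unadjusted p of 0.05 the block gave 7 members and 4 related genes higher, with 6.92% of all genes higher. In both same-numbered pairs of libraries 19 members were higher with cisplatin and 0 lower, as were 38.4% and 15.7% of all genes.

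Of the 35 members followed singly, 26 had a fold change that changed sign when a library was left out, and 8 kept their sign under every alternative. Leaving out a library moved *cyp-13A10* from -0.39 to 1.08, *cyp-13A12* from -0.63 to 0.92, *cyp-13A2* from -1.03 to 0.81, *cyp-14A1* from -0.36 to 0.93, *cyp-14A2* from -1.14 to 1.23, *cyp-23A1* from -0.81 to 0.57, *cyp-25A1* from -0.58 to 0.17, *cyp-25A3* from -0.53 to 1.55, *cyp-29A2* from -0.46 to 0.74, *cyp-31A3* from -0.0497 to 0.42, *cyp-31A5* from -0.14 to 0.24, *cyp-32A1* from -0.0463 to 1.23, *cyp-32B1* from -0.14 to 0.96, *cyp-33C5* from -0.62 to 0.55, *cyp-33C7* from -0.45 to 1.62, *cyp-33E2* from -0.61 to 0.74, *cyp-34A2* from -0.61 to 1.00, *cyp-35A2* from -0.62 to 1.73, *cyp-35A3* from -0.21 to 2.32, *cyp-35A5* from -0.53 to 0.37, *cyp-35B1* from -0.64 to 0.68, *cyp-36A1* from -0.0679 to 0.74, *cyp-37A1* from -0.45 to 0.63, *cyp-37B1* from -0.60 to 1.60, *cyp-42A1* from -0.71 to 1.17 and *cyp-43A1* from -0.26 to 0.94. With quantile normalization the reversed values were *cyp-14A2* -0.12, *cyp-31A5* -0.0333, *cyp-33C9* -0.0226, *cyp-33E2* -0.0851, *cyp-35B1* -0.0525 and *cyp-37A1* -0.14, and with the libraries brought to a common median *cyp-14A2* -0.11, *cyp-29A2* -0.0454, *cyp-31A3* -0.0261, *cyp-31A5* -0.16, *cyp-33C9* -0.0723, *cyp-33E2* -0.11, *cyp-35B1* -0.078 and *cyp-37A1* -0.11. With 1 FPKM added, *cyp-35B1* -0.0048 was reversed. The cause of these changes was not tested. With about 1 fragment behind the lowest values of *cyp-35A4*, *cyp-34A5*, *cyp-34A10* and *cyp-13A12*, their fold changes are limited by depth.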
